A study of Mus musculus with 8 samples.

Results

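The AMP-activated protein kinase (AMPK) was examined here through 9 genes: the catalytic subunits Prkaa1 and Prkaa2, the scaffold subunits Prkab1 and Prkab2, the nucleotide-binding subunits Prkag1, Prkag2 and Prkag3, and the upstream kinases Stk11, which encodes LKB1, and Camkk2. Every region that the deposited accessibility table annotates to one of these genes was taken, which gave 325 of 489637 regions, and 9 of the 27552 genes named in the table. By gene the counts were 29 regions at Prkaa1, 85 at Prkaa2, 6 at Prkab1, 17 at Prkab2, 11 at Prkag1, 125 at Prkag2, 9 at Prkag3, 11 at Stk11 and 32 at Camkk2.

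AMPK is a complex of one catalytic, one scaffold and one nucleotide-binding subunit. It becomes active when AMP or ADP displaces ATP on the nucleotide-binding subunit and an upstream kinase phosphorylates the catalytic subunit. LKB1 is the main upstream kinase in contracting muscle, and CaMKK2, the product of Camkk2, acts on AMPK when calcium rises. Active AMPK favours glucose uptake and fatty acid oxidation and restrains lipid and protein synthesis. Prkag3 is expressed mainly in skeletal muscle, above all in fast fibres, whereas Prkaa1, Prkab1 and Prkag1 are expressed in most tissues.

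ATAC-seq, which reads out open chromatin through the adapters that a transposase leaves in it, was performed on the gastrocnemius, a mixed calf muscle, of mice aged 6 months. All 8 mice carried the genotype written Cre+:iMSBmal1 fl/fl, that is, Cre together with floxed copies of Bmal1, which encodes a core factor of the circadian clock. The 4 libraries labelled Vehicle and the 4 labelled iMSBmal1KO, treated with tamoxifen to induce the knockout in skeletal muscle, differ in tamoxifen as well as in the knockout, and these cannot be told apart. The labels give neither the sex, the time of day, nor the promoter behind Cre beyond the name of the line, and do not say that replicates came from separate cohorts, so p-values here measure the spread between these libraries.

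The deposited signal behaved as read counts divided by 1 constant per library, with 4.31 to 29.5 M read equivalents per library (M, units of 1000000). Vehicle replicate 4 was the shallowest and held 16.5% mitochondrial reads, against 1.11% to 5.51% in the others. With the deposited scaling it was the lowest of the 8 libraries for 6 of the 9 summed gene signals given here. With median-of-ratios factors, another constant per library, it was not the lowest at any of the 9 genes. Genes of all muscle fibres summed to 16609 to 28894 per library and genes of fast fibres to 10171 to 18338, and all of these genes were listed. With the deposited scaling Vehicle replicate 4 gave the lowest value of both sums, and the other libraries gave at least 23584 and 14595. The part of this in the results was not tested. The satellite cell, fibro-adipogenic, endothelial and adipocyte lists were also listed in full, whereas Cd68 of 3 macrophage genes and Alb of 4 genes of other tissues had no region. The remaining 3 genes of other tissues summed to 162.6 to 179.8 in Vehicle and 205 to 245 in iMSBmal1KO, without overlap, and their part in the results was not tested. Ins2 carried this sum, with 150.1 to 165 in Vehicle and 189.7 to 237 in iMSBmal1KO, whereas Afp at 0 to 10.3 and Cyp3a11 at 0.836 to 12.5 overlapped between the groups. In whole muscle, fewer nuclei of a type and less accessibility per nucleus cannot be told apart.

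RefSeq windows on GRCm38.p6 matched all 9 genes, with 3 start sites for Prkag2 and 1 for each of the others. The 250 bases before 8 of these 11 starts are printed because they carry the contrast in promoter accessibility described next: a pair of highly accessible promoters, the 3 alternative Prkag2 starts, the pair of catalytic subunits and a weakly accessible promoter. Each reads 5′ to 3′ on the strand of the gene, with every CG dinucleotide in capitals.
Stk11, chr10:80115545-80115794, plus strand: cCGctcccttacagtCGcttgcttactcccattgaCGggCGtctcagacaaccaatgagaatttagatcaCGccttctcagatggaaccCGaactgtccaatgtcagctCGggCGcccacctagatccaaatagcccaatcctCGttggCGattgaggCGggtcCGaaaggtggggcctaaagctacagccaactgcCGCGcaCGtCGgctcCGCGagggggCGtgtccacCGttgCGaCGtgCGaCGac
Prkag3, chr1:74748956-74749205, minus strand: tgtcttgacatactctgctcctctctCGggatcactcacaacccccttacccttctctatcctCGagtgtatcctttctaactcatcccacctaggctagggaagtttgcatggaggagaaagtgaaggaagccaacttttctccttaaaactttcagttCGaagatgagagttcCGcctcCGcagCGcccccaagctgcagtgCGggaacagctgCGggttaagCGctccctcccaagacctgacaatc
Prkag2 short start, chr5:24908510-24908759, minus strand: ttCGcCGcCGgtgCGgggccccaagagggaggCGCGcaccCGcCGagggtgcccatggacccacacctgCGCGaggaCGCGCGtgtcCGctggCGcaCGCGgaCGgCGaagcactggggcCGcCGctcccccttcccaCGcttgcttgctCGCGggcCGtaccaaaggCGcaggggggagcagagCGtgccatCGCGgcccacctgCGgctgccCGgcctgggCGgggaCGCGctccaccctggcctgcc
Prkag2 middle start, chr5:24995754-24996003, minus strand: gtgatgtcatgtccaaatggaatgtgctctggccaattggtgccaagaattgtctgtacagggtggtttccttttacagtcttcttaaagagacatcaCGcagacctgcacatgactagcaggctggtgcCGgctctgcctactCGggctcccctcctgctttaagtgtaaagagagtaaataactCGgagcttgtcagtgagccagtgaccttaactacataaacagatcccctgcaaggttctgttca
Prkag2 long start, chr5:25100643-25100892, minus strand: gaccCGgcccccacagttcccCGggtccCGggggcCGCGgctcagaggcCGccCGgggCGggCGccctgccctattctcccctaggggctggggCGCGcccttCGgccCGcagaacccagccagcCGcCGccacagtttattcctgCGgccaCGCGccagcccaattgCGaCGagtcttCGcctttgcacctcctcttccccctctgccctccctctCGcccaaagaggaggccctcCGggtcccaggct
Prkaa2, chr4:105109899-105110148, minus strand: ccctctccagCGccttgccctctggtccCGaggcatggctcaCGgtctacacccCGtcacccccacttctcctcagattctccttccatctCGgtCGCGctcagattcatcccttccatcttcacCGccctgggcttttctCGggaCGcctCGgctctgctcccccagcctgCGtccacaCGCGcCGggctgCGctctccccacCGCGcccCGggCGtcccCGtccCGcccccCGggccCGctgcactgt
Prkaa1, chr15:5143611-5143860, plus strand: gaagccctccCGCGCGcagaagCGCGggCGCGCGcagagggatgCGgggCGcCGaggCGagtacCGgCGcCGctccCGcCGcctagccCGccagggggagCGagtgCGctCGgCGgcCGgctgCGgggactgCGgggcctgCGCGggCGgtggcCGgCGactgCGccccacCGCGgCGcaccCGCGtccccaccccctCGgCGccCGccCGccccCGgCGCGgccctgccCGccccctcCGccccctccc
Camkk2, chr5:122779411-122779660, minus strand: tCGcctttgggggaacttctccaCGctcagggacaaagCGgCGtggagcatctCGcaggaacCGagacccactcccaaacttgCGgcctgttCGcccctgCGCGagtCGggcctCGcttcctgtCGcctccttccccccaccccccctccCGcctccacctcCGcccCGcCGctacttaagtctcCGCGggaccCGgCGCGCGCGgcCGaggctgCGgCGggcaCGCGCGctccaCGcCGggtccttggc

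The printed stretches held 24 CG dinucleotides at Stk11, 9 at Prkag3, 24 at Prkaa2, 45 at Prkaa1 and 32 at Camkk2. At Prkag2 they held 34 at the short start, 4 at the middle start and 23 at the long start. Over the full windows of 300 bases, with 50 bases after the start, the median of all 32851 RefSeq windows was 7 CG dinucleotides, and Prkaa1 with 52 lay at the 99.4 percentile. CG content and accessibility did not always run in parallel among these genes. Prkaa1 and Camkk2, both rich in CG, had the lowest promoter signal per kb of the 9 genes. Prkag3, with 11 in its full window, had more signal per kb than either. Stk11, with 33, and Prkab1, with 30, went the other way, being rich in CG with high signal per kb. This signal was taken over all regions centred within 1000 bp of a start, not over the windows in which CG was counted. Over only the regions that overlap the windows, Camkk2 had 159, Prkaa1 247 and Prkag3 976 signal per kb. The long start of Prkag2, with 25 CG dinucleotides in its full window, had 136 by that measure. The clock E-box CACGTG, its variant AACGTG and the ROR core TAGGTCA, each searched on both strands, were in 7.15%, 4.68% and 2.61% of all windows. None of the 11 windows of these genes held any of the 3, which says only that these letters are not within these windows.

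Promoter accessibility was compared between genes per length, as the signal of all regions centred within 1000 bp of an annotated start, divided by their length in kb. Over the 8 libraries it was 1304 ± 210 signal per kb at Stk11, 944 ± 159 at Prkag3, 750 ± 103 at Prkab1 and 684 ± 90.6 at Prkab2 (SD, n = 8). These promoters lay at the 96.97, 92.0, 86.3 and 83.8 percentiles of the 15792 tested promoters. Prkaa2 had 475 ± 82.5, Prkag1 394 ± 69.0 and Prkag2 284 ± 32.6 signal per kb. Prkaa1, at 170 ± 48.0, and Camkk2, at 86.7 ± 16.1 signal per kb, were the lowest, at the 38.1 and 18.8 percentiles.

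**Figure D1:**
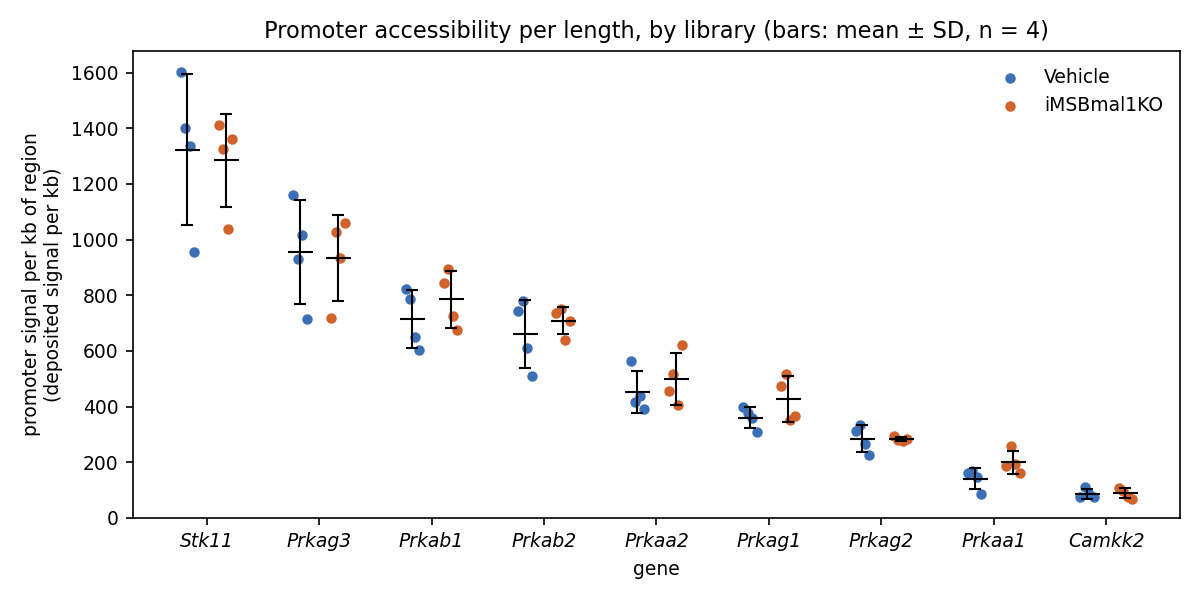
Promoter signal per kb of region (vertical axis) of each gene (horizontal axis) in the 4 Vehicle (blue) and 4 iMSBmal1KO (orange) libraries, with the mean and SD in black. Stk11 and Prkag3 sit highest and Prkaa1 and Camkk2 lowest, and the colours overlap at every gene.

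The order held within libraries for some neighbours only. Stk11 was above Prkag3, Prkab2 above Prkaa2, Prkag1 above Prkag2, Prkag2 above Prkaa1, and Prkaa1 above Camkk2 in 8 of 8 libraries. Prkag3 was above Prkab1 in 7 and Prkaa2 above Prkag1 in 6 of the 8. Prkab1 exceeded Prkab2 in 7 of 8 libraries by a ratio of 1.10 ± 0.0832 (SD). The range of every gene overlapped that of its neighbour in the order.

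Part of this order depended on which regions were taken. Over only the regions that overlap the RefSeq window of a start, Prkab2 had 1245 ± 187 and Prkab1 749.9 ± 103 signal per kb (SD, n = 8), so the order of the scaffold subunits was the opposite. There Prkab2 was higher in 8 of 8 libraries, by a ratio of 1.66 ± 0.154, and the ranges did not overlap. Prkab2 also lay above Prkag3 in every library there, with overlapping ranges, as Prkag3 had 976 ± 172 signal per kb. The place of Prkag3 next to Stk11 in the order thus depended on the regions taken. By the same measure Prkag1 had 665 ± 141 and the short start of Prkag2 618 ± 109, with Prkag1 higher in 5 of 8 libraries and overlapping ranges. The promoter value of Prkag2 given above pools the Prkag2 regions near any of its listed starts, 2623 bp in all. It leaves out the regions over the long start, which are annotated to 2900005J15Rik. The regions over the short start make up 817 bp and those over the middle start 470 bp.

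The paralogues of the other subunits stood further apart. The promoter of Prkaa2, the catalytic subunit that predominates in muscle fibres, had 2.98 ± 0.888 times the signal per kb of the Prkaa1 promoter, with 8 of 8 libraries higher and no overlap of the ranges. The promoter of Prkag3 had 2.45 ± 0.498 times the signal per kb of Prkag1 and 3.34 ± 0.499 times that of Prkag2, also without overlap. Over the regions at the RefSeq windows these differences were smaller: Prkag3 had 1.51 ± 0.311 times the signal per kb of Prkag1, higher in 7 of 8 libraries, and 1.59 ± 0.211 times that of the short Prkag2 start, higher in 8 of 8, with overlapping ranges in both. Between the upstream kinases, Stk11 had 15.4 ± 3.46 times the signal per kb of Camkk2. At the windows the ratios were 15.8 ± 6.58 for that pair and 2.67 ± 1.01 for Prkaa2 over Prkaa1, both without overlap. The Prkag1 start lies beside Kmt2d and the Prkaa2 start overlaps Gm36893, so signal there cannot be assigned to one gene of each pair.

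The groups were then compared, to ask whether accessibility at the AMPK genes differs after the knockout of Bmal1 was induced. Of the 325 regions, 103 passed the filter on low signal, and 0 of them passed a limma adjusted p of 0.05, against 0.0881% of the 124901 regions tested. The smallest adjusted p was 0.396. An unadjusted p under 0.05 was reached by 6 of the 103 (5.83%; limma), 4 higher and 2 lower in iMSBmal1KO, against 9.22% of all tested regions. The groups did not overlap at 1 region higher in iMSBmal1KO, against 3.62% of all tested regions, and at 2 lower, against 1.87%. Together the regions without overlap were 2.91% of the 103. These shares were near or below the background, so by these counts the regions as a whole did not stand out from the rest of the table.

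The median log2 change of the 103 regions was 0.03, beside 0.12 over all tested regions, and 55 of the 103 (53.4%) were positive, beside 62.0% of all. Single values ran from -1.54 to 1.72, and the 95% confidence interval reached a median of 0.72 to either side. By annotated part of the gene, 27 regions at a transcription start had a median log2 change of 0.03 and 57 intronic regions one of 0.11, beside 0.17 and 0.10 over all tested regions of those kinds. Of the 6 regions with the smallest p, 5 were intronic and 1 lay at a start.

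Summing all regions of a gene gave 1 value per gene and library. By this measure 0 of the 9 genes passed a limma adjusted p of 0.05, against 0.17% of 19404 genes, and 1 reached an unadjusted p under 0.05, against 10.2%. By summed promoter signal 0 of 9 passed the adjusted threshold, against 0.146% of 15792 promoters, and 1 reached an unadjusted p under 0.05, against 10.7%. In both cases the 1 gene was Prkaa1. The summed signal of all 9 genes was 11919 ± 1525 in Vehicle and 11905 ± 896 in iMSBmal1KO (mean ± SD over 4 libraries a group). On the log2 scale the groups differed by 0.00 with the deposited scaling, less than the SD of 0.19 in Vehicle and 0.11 in iMSBmal1KO. With median-of-ratios factors the sums were 12345 ± 487 and 11408 ± 386, the difference was -0.11 and the groups did not overlap, at 11947 to 13025 in Vehicle and 11020 to 11777 in iMSBmal1KO. Trimmed-mean factors also gave -0.11 without overlap, and total nuclear reads gave -0.12 with overlap. The sum over these genes was not tested.

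**Figure D2:**
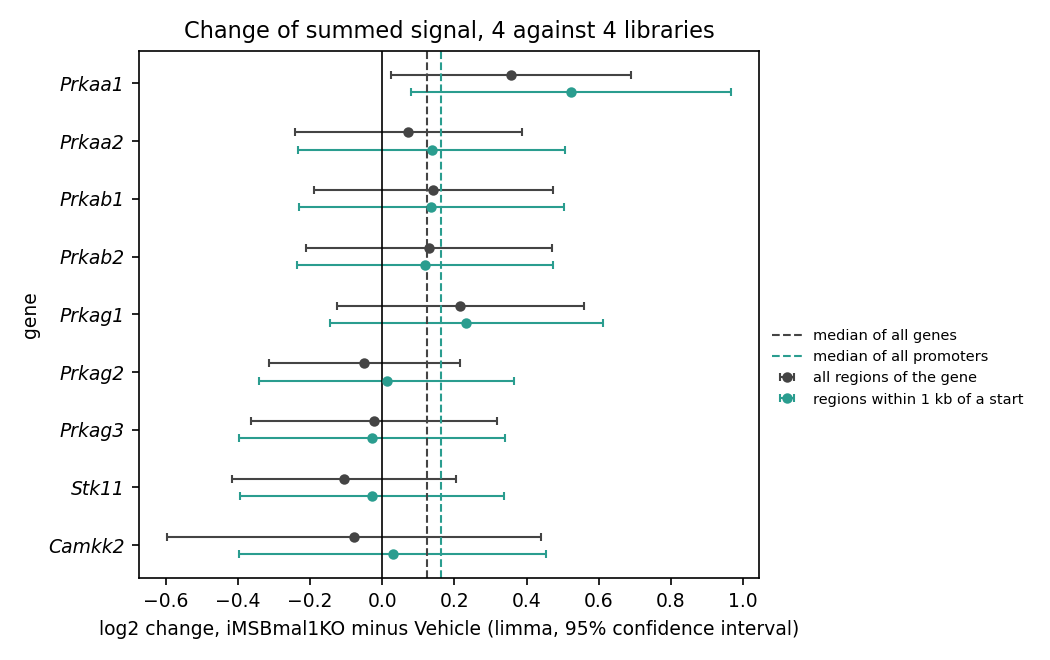
Log2 change of summed signal, iMSBmal1KO minus Vehicle (horizontal axis), for each gene (vertical axis), over all its regions (grey) and over regions within 1 kb of a start (green), with limma 95% confidence intervals. Only the 2 intervals of Prkaa1 lie above 0, and dashed lines mark the medians of all genes, 0.12, and of all promoters, 0.16.

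Of the catalytic subunits, Prkaa1, present in most tissues, had the largest change of the 9 genes in summed signal and did not pass the threshold. Its summed signal was 228, 217, 194 and 178 in Vehicle and 243, 299, 262 and 242 in iMSBmal1KO (here and below in the order of replicates 1 to 4). Every iMSBmal1KO library lay above every Vehicle library, which happened in this direction for 4.04% of all genes. The log2 change was 0.36 ± 0.16 (SE), with a 95% confidence interval of 0.02 to 0.69, an unadjusted p of 0.037 and a limma adjusted p of 0.474. Relative to the median of all genes the change was 0.23. With median-of-ratios factors the summed signal was 212 ± 10.4 in Vehicle and 251 ± 23.2 in iMSBmal1KO, still without overlap, and the log2 change was 0.24 (limma adjusted p of 0.485). The limma adjusted p ran from 0.238 to 0.91 over 20 other settings.

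The promoter carried 57.8% of the Prkaa1 signal, and its log2 change was 0.52 ± 0.22 (SE; adjusted p = 0.438 by limma). Promoter signal was 128, 134, 115 and 68.8 in Vehicle and 146, 204, 153 and 128 in iMSBmal1KO. The Vehicle and iMSBmal1KO values met at 134 and 128, so here the groups overlapped. Within the promoter, the region chr15:5143699-5143802, inside the printed stretch, had a signal of 22.4, 41.1, 32.4 and 9.38 in Vehicle and 59.1, 69.4, 27.4 and 34.7 in iMSBmal1KO. Its log2 change was 0.91 ± 0.40 (SE; adjusted p = 0.528 by limma) and was 0.51 without Vehicle replicate 4, which held 3 reads there. The strongest Prkaa1 region, chr15:5143904-5144111, just downstream, had 46.4 ± 6.38 in Vehicle and 61.0 ± 14.0 in iMSBmal1KO (mean ± SD over 4 libraries a group), with overlapping values.

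Prkaa2 showed no such change. Its summed signal was 1375 ± 181 in Vehicle and 1449 ± 215 in iMSBmal1KO (mean ± SD over 4 libraries a group), a log2 change of 0.07 with a 95% confidence interval of -0.24 to 0.39 (limma). That sign reversed with each of the 4 other scalings. Its strongest region, at the start, chr4:105109910-105110572, had a signal of 533, 384, 379 and 372 in Vehicle and 345, 451, 381 and 534 in iMSBmal1KO. Vehicle replicate 1 stood well above the other Vehicle libraries there, whereas the iMSBmal1KO values were graded from 345 to 534, with replicate 4 the highest. The smallest p of all 103 regions belonged to a weak region in intron 1 of Prkaa2, chr4:105090946-105091095, 18.8 kb from the start. Its signal was 24.5, 12.3, 14.0 and 15.6 in Vehicle and 8.56, 5.02, 2.39 and 5.02 in iMSBmal1KO. All Vehicle libraries were above all iMSBmal1KO libraries, on 5 to 23 reads in Vehicle and 2 to 20 in iMSBmal1KO. The log2 change was -1.54 ± 0.49 (SE) with a limma adjusted p of 0.396. Another weak region, chr4:105048656-105048772 in intron 5, had a log2 change of -0.65 ± 0.37 (SE) and overlapping groups.

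**Figure D3:**
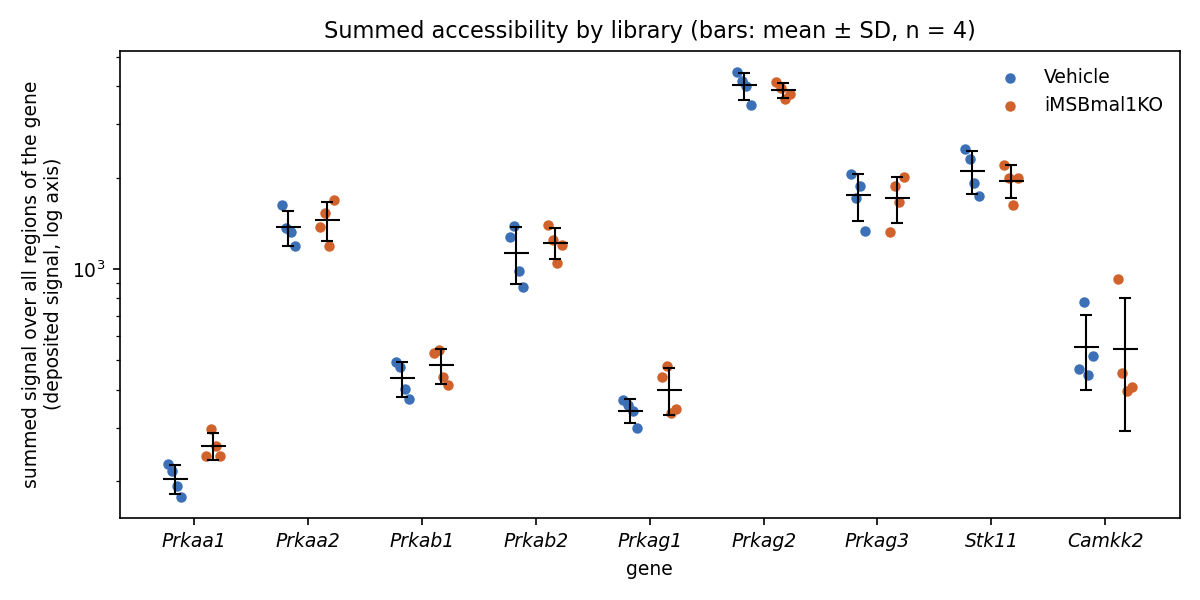
Summed signal over all regions of a gene (vertical axis, log scale) for the 9 genes (horizontal axis) in the 4 Vehicle (blue) and 4 iMSBmal1KO (orange) libraries, with the mean and SD in black. With the deposited scaling the groups are apart at Prkaa1 and overlap at the other 8 genes; sums are not per length, so heights do not compare genes.

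The scaffold subunits, which carry the glycogen-binding domain, differed by less than the spread between replicates. The summed signal of Prkab1 was 437 ± 58.2 in Vehicle and 482 ± 62.6 in iMSBmal1KO, a log2 change of 0.14 with a 95% confidence interval of -0.19 to 0.47 (limma). Almost all of it, 93.1%, came from 1 region at the start, chr5:116024214-116024783, with 468, 448, 370.5 and 344 in Vehicle and 482, 509, 413 and 385 in iMSBmal1KO. The summed signal of Prkab2, the form enriched in muscle, was 1132 ± 241 in Vehicle and 1223 ± 142 in iMSBmal1KO, a log2 change of 0.13 with an interval of -0.21 to 0.47. Its start region, chr3:97657855-97658544, gave 73.0% of this, with 937, 1006, 752 and 619 in Vehicle and 905, 967, 791 and 898 in iMSBmal1KO. Both start regions had overlapping groups, with Vehicle replicate 4 the lowest of the 8 libraries at each. In intron 2 of Prkab2, chr3:97660102-97660340 had a log2 change of 0.80 ± 0.34 (SE; adjusted p = 0.514 by limma). Its signal was 23.5, 23.6, 14.6 and 9.38 in Vehicle and 34.7, 40.1, 20.3 and 27.6 in iMSBmal1KO, with iMSBmal1KO replicate 3 inside the Vehicle range. The smallest p of Prkab1 was at a weak region, chr5:116019588-116019654, with 8.53, 15.4, 10.8 and 3.13 in Vehicle and 21.0, 8.36, 4.77 and 18.8 in iMSBmal1KO. The groups overlapped there, and the log2 change of 0.41 ± 0.53 (SE; adjusted p = 0.806 by limma) was 0.01 without Vehicle replicate 4. At a further start of Prkab2, chr3:97669666-97669885 had a log2 change of -0.21 ± 0.32, also with overlapping groups.

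Among the nucleotide-binding subunits, Prkag1 had a summed signal of 342 ± 30.4 in Vehicle and 401 ± 71.4 in iMSBmal1KO, a log2 change of 0.22 with a 95% confidence interval of -0.12 to 0.56 (limma). The region at its start, chr15:98831365-98831672, gave 76.1% of the signal, with 290, 269, 249.7 and 184 in Vehicle and 362, 368, 258 and 281 in iMSBmal1KO. Replicates 1 and 2 of iMSBmal1KO lay above all Vehicle libraries, and replicates 3 and 4 within their range. Prkag3, the muscle form, had 1746 ± 307 in Vehicle and 1717 ± 298 in iMSBmal1KO, a log2 change of -0.02 with an interval of -0.36 to 0.32. Its start region, chr1:74748719-74749451, had 895, 755, 679 and 516 in Vehicle and 558, 750.1, 765 and 807 in iMSBmal1KO. Both groups spanned nearly the same range, and Vehicle replicate 4 and iMSBmal1KO replicate 1 were the lowest. The adjoining region chr1:74748642-74748718, with the smallest p of Prkag3, had 28.8, 22.6, 35.6 and 34.4 in Vehicle and 13.3, 13.4, 35.8 and 23.8 in iMSBmal1KO. Its groups overlapped, and its log2 change was -0.57 ± 0.34 (SE; adjusted p = 0.593 by limma).

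Prkag2 is the longest of the 9 genes in the table and the one with the most regions. Its 3 starts make long, middle and short transcripts, and they differed in accessibility. Per length, the regions over the RefSeq window of the short start, 817 bp in all, had 618 ± 109 signal per kb, with a range of 402 to 773 (SD, n = 8). Those over the middle start, 470 bp in all, had 242 ± 39.1 signal per kb, between 200.2 and 326, and those over the long start, 136 bp in all, had 136 ± 49.2, between 69.0 and 215. The short start was above the middle one in 8 of 8 libraries without overlap, and the middle start above the long one in 7 of 8 with overlapping ranges. The regions over the long start are annotated to 2900005J15Rik in the table and are not among the 125. At none of the 3 starts did the groups separate, with a summed signal of 501 ± 134 in Vehicle and 509.7 ± 21.3 in iMSBmal1KO at the short start. The strongest region of the middle start, chr5:24995666-24995992, had 84.3 ± 7.66 in iMSBmal1KO against 98.8 ± 14.7 in Vehicle and a log2 change of -0.22 ± 0.22 (SE). Just upstream of the long start, chr5:25101207-25101352 had a log2 change of 0.52 ± 0.43. At a start of another listed transcript, chr5:24903016-24903176 had one of 0.35 ± 0.28, and the groups overlapped at all 3 of these regions.

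The strongest Prkag2 signal lay in introns rather than at a start. The region chr5:24960802-24961300, in intron 1 of the transcript Prkag2-202, had 22.8% of the signal of the gene. It held 1131, 973, 1027 and 809.8 in Vehicle and 868, 856, 736 and 800.3 in iMSBmal1KO. Vehicle replicates 1 to 3 were above all iMSBmal1KO libraries, and Vehicle replicate 4 was within their range. The log2 change was -0.27 ± 0.17 (SE; adjusted p = 0.615 by limma).

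Close by, chr5:24963806-24964187, in the same intron and 31.6 kb from the start of that transcript, had a clearer difference between the groups. Its signal was 440.2, 363, 355 and 259.5 in Vehicle and 229, 244, 222 and 256 in iMSBmal1KO. Every Vehicle library was above every iMSBmal1KO library, with Vehicle replicate 4 close to iMSBmal1KO replicate 4. The log2 change was -0.55 ± 0.20 (SE) with a 95% confidence interval of -0.97 to -0.13, an unadjusted p of 0.0121 and a limma adjusted p of 0.468, so the region did not pass the threshold. With cyclic loess scaling, which fits the scale along the signal, the log2 change was -0.70 and the limma adjusted p 0.0206. It was the 1 region of the 9 genes past the threshold under that setting, and the adjusted p ran from 0.0206 to 0.85 over 20 other settings. With median-of-ratios factors the signal was 365 ± 45.2 in Vehicle and 228 ± 14.8 in iMSBmal1KO, and the limma adjusted p was 0.0681.

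Shares within the gene do not depend on the scaling of a library. The intron region at 24963806 amounted to 11.0%, 9.58%, 9.70% and 8.09% of the rest of the Prkag2 signal in Vehicle and to 5.85%, 6.59%, 6.50% and 7.28% in iMSBmal1KO. The region at 24960802 amounted to 32.4% ± 2.13 in Vehicle and 26.6% ± 0.959 in iMSBmal1KO (mean ± SD over 4 libraries a group). Neither share overlapped between the groups. In contrast, the shares of the next intron region, chr5:24973094-24973664, at 16.4% ± 0.888 and 17.8% ± 2.24, and of the short start, at 14.1% ± 3.14 and 15.2% ± 1.24, did overlap. These shares were looked at after the values had been seen, and are given as a description.

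**Figure D4:**
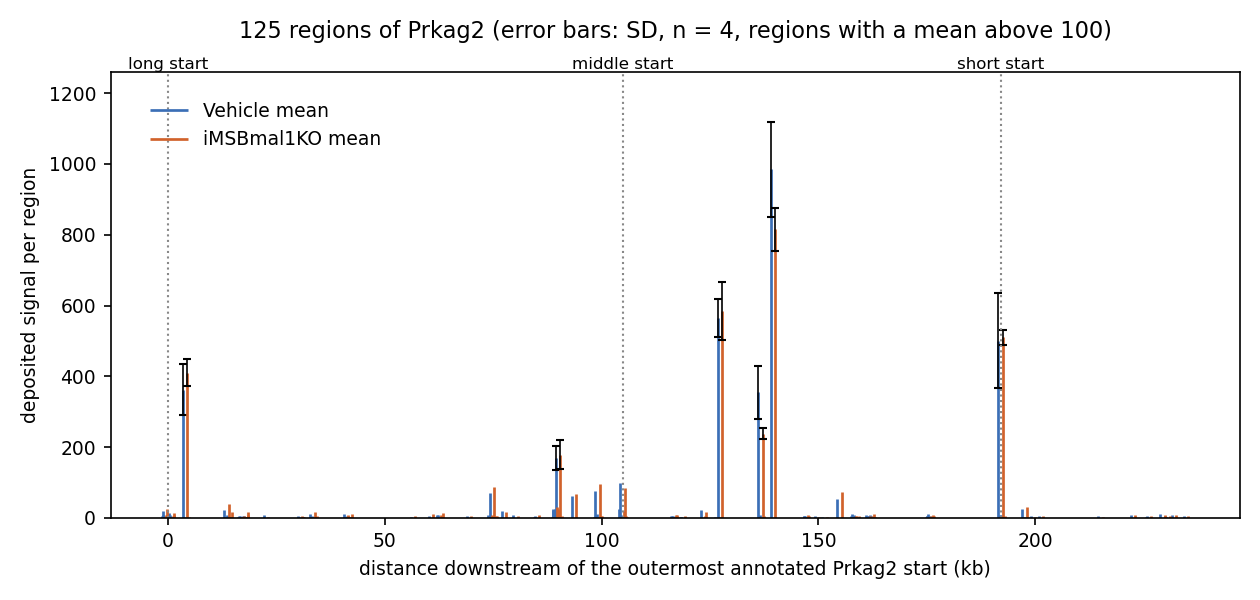
Mean signal (vertical axis) of the 125 Prkag2 regions by distance downstream of the outermost start (horizontal axis, kb), Vehicle (blue) and iMSBmal1KO (orange) drawn side by side at the region centre, with the SD for regions above 100 and dotted lines at the 3 starts. The tall lines at 127 to 139.6 kb are 3 intronic regions, where Vehicle is higher in the middle and right one.

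Elsewhere in Prkag2, weaker intronic regions had estimates of either sign, and those given here are positive. The region chr5:25025795-25026101, in intron 2, had 68.2, 69.9, 79.4 and 59.4 in Vehicle and 94.6, 87.0, 89.5 and 81.5 in iMSBmal1KO. It was the 1 region of the 9 genes with every iMSBmal1KO library above every Vehicle library, and its log2 change was 0.35 ± 0.22 (SE; adjusted p = 0.613 by limma). Near the long start, chr5:25082703-25082768 had 1.72 ± 0.72 and chr5:25086401-25086537 had 0.81 ± 0.36 as log2 changes (SE; adjusted p = 0.509 and 0.527 by limma), on 0 to 37 and 3 to 49 reads. The first of these was 0.96 without Vehicle replicate 4, 2.31 without Vehicle replicate 2 and 1.01 with a pseudocount of 5. In intron 2 of Prkag2-202, chr5:24945686-24945928 had 0.48 ± 0.26, with overlapping groups. Of the 27 tested Prkag2 regions 18 were positive, beside 62.0% of all tested regions. The summed signal of Prkag2 was 4020 ± 412 in Vehicle and 3873 ± 216 in iMSBmal1KO, a log2 change of -0.05 with a 95% confidence interval of -0.31 to 0.22 (limma). With median-of-ratios factors the sums were 4173 ± 181 and 3716 ± 141 without overlap, and the log2 change was -0.17 (adjusted p = 0.428 by limma). It was -0.17 with trimmed-mean factors (adjusted p = 0.419), again without overlap, and -0.18 with total nuclear reads (adjusted p = 0.709), with overlap.

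Of the upstream kinases, Stk11 had a summed signal of 2110 ± 338 in Vehicle and 1953 ± 239 in iMSBmal1KO, a log2 change of -0.11 with a 95% confidence interval of -0.42 to 0.20 (limma). It was -0.22 with trimmed-mean and with median-of-ratios factors (adjusted p = 0.381 by limma for both), -0.23 with total nuclear reads (adjusted p = 0.676), -0.02 without iMSBmal1KO replicate 3 and -0.19 without Vehicle replicate 4. The groups overlapped under each scaling named. Its start region, chr10:80115320-80115863, the strongest of all 325, had 1485, 1306, 1231 and 866 in Vehicle and 1310.2, 1236, 947 and 1272 in iMSBmal1KO. The second region, chr10:80117122-80117625, annotated at the end of the short transcript Stk11-204, had 639 ± 145 in Vehicle and 525 ± 88.7 in iMSBmal1KO (mean ± SD over 4 libraries a group). Groups overlapped at both.

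Camkk2, the calcium-dependent upstream kinase, had its strongest region away from the weak promoter, at chr5:122770579-122771266, annotated as a 5' UTR exon 8.02 kb from the start. Its signal was 227, 512, 199 and 278 in Vehicle and 600.0, 231, 188 and 182 in iMSBmal1KO. One library of each group stood high, Vehicle replicate 2 and iMSBmal1KO replicate 1, and the other 6 lay between 182 and 278. The log2 change was -0.11 ± 0.40 (SE), and -0.22 without these libraries. This region gave 54.9% of the Camkk2 signal, so the summed signal followed it, with 554 ± 153 in Vehicle and 547 ± 253 in iMSBmal1KO (mean ± SD over 4 libraries a group). The log2 change of the sum was -0.08 with a 95% confidence interval of -0.60 to 0.44, the widest of the 9 genes. The smallest p of Camkk2 was at a weak region beside its start, chr5:122779462-122779542, with 8.53, 16.4, 6.35 and 3.13 in Vehicle and 10.9, 14.2, 17.9 and 11.3 in iMSBmal1KO. Its log2 change was 0.77 ± 0.46 (SE; adjusted p = 0.600 by limma) with overlapping groups, and chr5:122763864-122764057, at a further start, had -0.67 ± 0.48, also with overlap.

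The same libraries stood high together at an intronic region of Prkab2, chr3:97661379-97661655, with 83.1, 157, 32.4 and 50.03 in Vehicle and 197, 55.2, 42.9 and 61.5 in iMSBmal1KO. A weak region in intron 1 of Prkaa2, chr4:105108495-105108592, did likewise, with 28.8 in Vehicle replicate 2 and 41.5 in iMSBmal1KO replicate 1 against 4.77 to 15.6 in the other 6. Over all tested regions, 798 (0.639%) had both libraries more than 1.5-fold above each of the other 6, the most of any of the 28 pairs of libraries, and 310 had the next pair above the rest. In the 9 genes these were the 3 regions named. Without both libraries, the log2 changes of summed Prkaa1 signal and of the Prkag2 intron region at 24963806 kept their direction. They were 0.42 and -0.51 (limma adjusted p of 0.356 and 0.483). For the Prkag2 region the confidence interval then ran from -1.03 to 0.0062, and the unadjusted p was 0.0526 (limma). Unlike the interval with all libraries, it no longer excluded a change of the opposite sign.

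**Figure D5:**
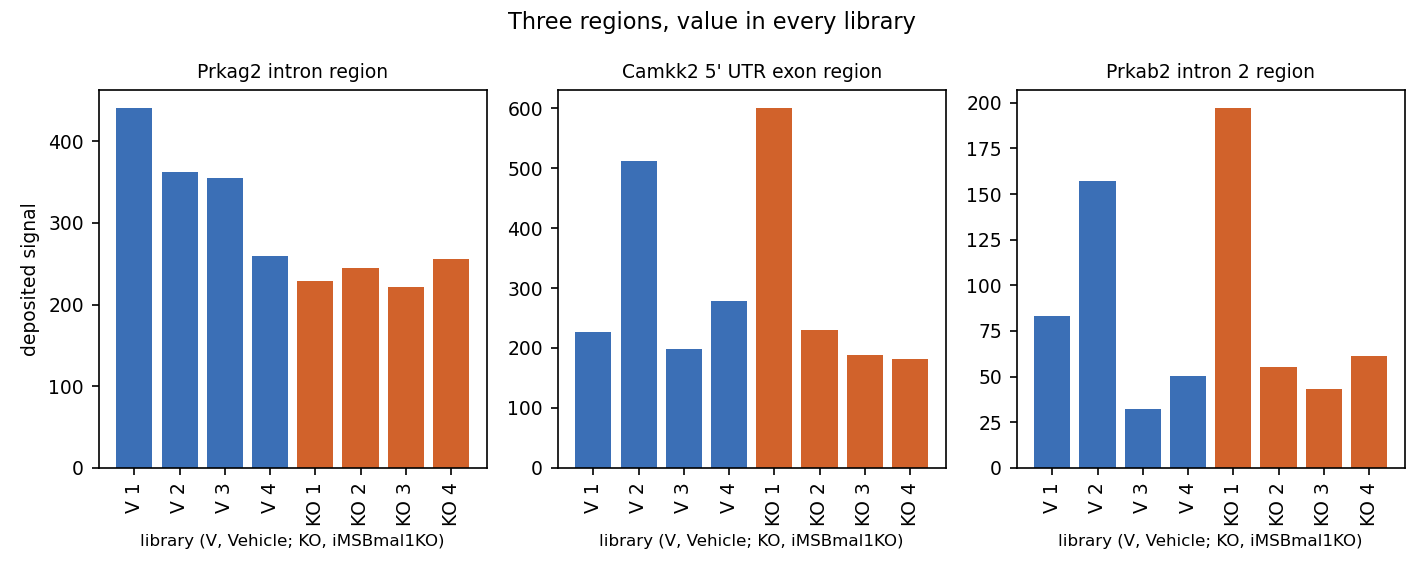
Deposited signal (vertical axis) in each library (horizontal axis; V, Vehicle; KO, iMSBmal1KO) at the Prkag2 intron region (chosen for its separation of the groups), the strongest Camkk2 region and an intronic Prkab2 region. The right panel, titled Prkab2 intron 2 region, is chr3:97661379-97661655. The Prkag2 bars run from 222 to 440.2 with the groups apart, whereas the other panels are high in 1 library of each group.

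Other genes of the pathway were read from 3 lists with 49 genes in the summed-signal fit: 12 regulators of AMPK and LKB1, 14 AMPK-related kinases, and 23 substrates and targets. None of the 49 passed a limma adjusted p of 0.05 in summed signal, against 0.17% of all genes. An unadjusted p under 0.05 was reached by 1 with a positive and 1 with a negative change (4.08% together), against 10.2% of all genes. The median log2 change was 0.04 beside 0.12 over all genes. By promoter signal 0 of 46 passed. Of 755 tested regions of these genes 1 (0.132%) passed the adjusted threshold, lower in iMSBmal1KO, against 0.0881% of all tested regions, and 57 (7.55%) had an unadjusted p under 0.05, against 9.22% of all tested regions. That region, chr11:119811098-119811425, annotated at a start within Rptor, a subunit of mTORC1 that AMPK phosphorylates, had 83.1, 78.1, 97.9 and 84.4 in Vehicle and 8.56, 8.36, 5.96 and 18.8 in iMSBmal1KO. The groups were far apart, with a log2 change of -3.04 ± 0.32 (SE) and a limma adjusted p of 2.97e-04. The summed Rptor signal was 2795 ± 197 in Vehicle and 2834 ± 154 in iMSBmal1KO. The region, at 85.9 ± 8.45 in Vehicle (mean ± SD), is smaller than the SD of that sum, so the sum cannot show its loss. In intron 7 of Rptor, chr11:119796435-119796817 had 147, 128, 116 and 81.3 in Vehicle and 195, 270.1, 243 and 238 in iMSBmal1KO. Every iMSBmal1KO library was above every Vehicle library there, with a log2 change of 1.02 ± 0.22 (SE) and a limma adjusted p of 0.105, short of the threshold.

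By summed signal, the smallest p among these lists was at Stradb, which encodes a pseudokinase partner of LKB1. It had 448, 275, 317 and 244 in Vehicle and 426, 451, 402 and 498 in iMSBmal1KO, a log2 change of 0.50 ± 0.18 (SE; adjusted p = 0.451 by limma), with Vehicle replicate 1 within the iMSBmal1KO range. Nuak2, an AMPK-related kinase, had a log2 change of 0.42 ± 0.21, and Crtc2, a transcriptional coactivator, one of 0.36 ± 0.18. The most negative evidence was at Tbc1d1, a regulator of glucose transporter traffic and a substrate of AMPK in muscle, with 5838 ± 1062 in Vehicle and 4544 ± 868 in iMSBmal1KO and a log2 change of -0.36 ± 0.16 (SE; adjusted p = 0.474 by limma). Fnip2, a partner of folliculin, had a log2 change of -0.24 ± 0.14 and Tsc2, which restrains mTORC1, one of -0.25 ± 0.18. None of these 6 genes passed the threshold, and the groups overlapped at each of them.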

How the data were processed

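The 8 libraries were grouped by the labels. The authors deposited 1 table of signal per region and library. Partek, Bowtie2, MACS2 and DESeq2, and the builds mm10 and GRCm39, are named in the submitters' processing notes without their roles. Listed positions of the members matched RefSeq on GRCm38.p6, and the listed stop was 1 base past the last base, which is the end given here. The deposited signal was in 98.3% to 99.8% of non-zero values a whole multiple of 1 step per library, within 0.02 reads, and dividing by it gave read equivalents. Complete recovery of reads is not claimed, so no count test was run. Regions abut in 41.3% of cases and are not independent.

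Signal was tested as log2(signal + 1) with limma-trend and robust empirical Bayes (limma 3.58.1, R 4.3.3), group as the only term. Log2 changes are on that scale, which understates the change of weak regions. The fit took 124901 regions with 0.762 read equivalents per 1000000 in at least 4 libraries and 15 in total. Sums over all regions of a gene, and over regions centred within 1000 bp of a start, were fitted alike. All features of a fit entered its Benjamini-Hochberg adjustment, with a threshold of 0.05. A promoter in the comparison per length has the same regions as the promoter sum. The fits were tested on simulated data. Tables and figures used Python 3.11.15, pandas 2.3.3 and matplotlib 3.10.9.

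Members and lists were chosen with earlier results of these data known. Named were, of each member, the region with the highest signal and that with the smallest p, the 5 smallest p in each direction, regions at further starts, list genes past the threshold and the 3 list genes with the smallest p in each direction. Named outside that rule, after values were seen, were the Prkag2 regions at 24973094 and 25025795 the regions of Prkab2 and Prkaa2 high in 2 libraries, and the Rptor region in intron 7. The main fit did not pair libraries by replicate number. Mff, a gene of the third list, was not in the fit. A marker list is not reported here.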

Additional observations from a re-analysis of the deposited data

Results flagged for a closer look

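In groups of 4 libraries, 3 of 78 sets of values had 1 library far from the other 3. Chance gives about 1 in 20 such sets, here 3.9. The summed Camkk2 signal was 925 in iMSBmal1KO replicate 1 and 396 to 455.8 in the other iMSBmal1KO libraries. The strongest Camkk2 region, at 122770579, had a signal of 600.0 in the same library and 181.9 to 230.8 in the others, and it is the larger part of that sum. The Prkaa2 start region, at 105109910, had 533 in Vehicle replicate 1 and 372.1 to 384.3 in the other Vehicle libraries.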

How the results depend on the processing

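Over 749 pairs of a result and an alternative, 702 kept their direction and their side of the threshold. Some of these pairs could not change direction. The other filters, the replicate block and the threshold of 0.1 leave the log2 change of a gene or region as it is. Counts of the 9 genes past the threshold stayed at 0 by summed signal and by promoter signal in every alternative run, and that of their regions at 0 except with cyclic loess (1). Regions of the 3 lists past the threshold rose from 1 to 3 with trimmed-mean factors, median-of-ratios factors, limma-voom and without Vehicle replicate 4, to 2 with total nuclear reads and to 4 with cyclic loess. Leaving out each library in turn gave 1 to 3. Without a filter, the median of the members' regions relative to all regions was 0.0142. The cause of these changes was not tested.

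The summed Prkaa2 change was -0.0445 with trimmed-mean factors, -0.0452 with median-of-ratios factors, -0.0142 with cyclic loess, -0.0555 with total nuclear reads and -0.0064 to 0.163 when each library was left out in turn. With cyclic loess Prkab1 was -0.0244. Leaving out each library in turn, alone or Vehicle replicate 2 together with iMSBmal1KO replicate 1, gave summed changes of -0.1185 to 0.0017 for Prkag2, -0.1455 to 0.0956 for Prkag3 (0.092 without both) and -0.3626 to 0.0974 for Camkk2. At start regions, Prkab2 was -0.0026 with total nuclear reads and -0.0059 to 0.2272 without libraries. Prkaa2 was -0.0844, -0.0851, -0.0986 and -0.0953 with the 4 scalings, in the order above, and -0.0809 to 0.1557 without libraries. Prkag3 was -0.0863, -0.087, -0.0831 and -0.0973 with these, -0.0171 with limma-voom and -0.1142 to 0.1863 without libraries. Stk11 was -0.1772 to 0.0855, and the strongest Camkk2 region -0.5051 to 0.1748, without libraries. None of these was past the threshold. The cause was not tested.

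Scaling moved the median change of all regions from 0.12 to 0.01 with median-of-ratios factors, and 85 regions were then called higher and 194 lower, against 39 and 71. All regions called were 110 with the deposited scaling, 277 with trimmed-mean factors, 279 with median-of-ratios factors, 342 with cyclic loess and with limma-voom, 218 with total nuclear reads, 195 without a filter, 175 at an adjusted p of 0.1, and 32 to 281 without 1 library. Gene sums called were 33, and 130 with the replicate block, 54 to 69 with other scalings and 7 to 132 without 1 library. Promoters called were 23, 155 with the block, 37 to 47 with other scalings, 43 with limma-voom, and 8 to 358 without 1 library, the highest without Vehicle replicate 2.

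Same-numbered libraries correlated at -0.06, 0.14, 0.02 and 0.02 in their deviations from the group means. With 4 libraries a group, these values cannot decide whether the numbers pair the samples. With the replicate block 0 regions of the 9 genes were called, and Prkaa1 had a summed change of 0.36 with a limma adjusted p of 0.257. Count tests on recovered reads were not run.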
